A study of Danio rerio with 9 samples.

Results

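The genes that write and erase DNA methylation were followed in single primordial germ cells (PGCs) of zebrafish. They were 10 genes of the 32266 in the deposited table, found by their symbols: the maintenance pair dnmt1 and uhrf1, the de novo methyltransferases dnmt3aa, dnmt3ab, dnmt3ba, dnmt3bb.1 and dnmt3bb.2, and the dioxygenases tet1, tet2 and tet3. PGCs, the founder cells of eggs and sperm, were taken at 6, 11 and 24 hours post fertilization (hpf), when embryos are at the shield, 3-somite and prim-5 stages. All embryos were AB strain fish with the transgene kop-egfp-nanos3-3ʹUTR. In it the kop promoter drives green fluorescent protein and the nanos3 tail restricts it to PGCs. By the paper's methods the 24 hpf embryo was anaesthetized with tricaine, and its trunk was cut out and minced. No such step is described for 6 and 11 hpf, so this handling cannot be told apart from the stage. Fluorescent cells were picked one by one with a capillary, 3 cells from 1 embryo at each stage, and each cell became a library of its own, named 6_1 to 24_3. The label gives gonad as the tissue at every stage, although whole embryos were dissociated at 6 and 11 hpf and trunks at 24 hpf. Since a stage is 1 embryo, the stage and the embryo cannot be told apart, and no p-value was computed.

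DNA methylation is the addition of a methyl group to cytosine, in vertebrates mostly where a guanine follows. Uhrf1 binds DNA that is methylated on only the older strand after replication and brings in Dnmt1, which copies the mark to the new strand. Dnmt3 enzymes place the mark on unmethylated DNA, and Tet enzymes oxidise it as a step towards its removal. In the mouse, PGCs lose most of their methylation while Uhrf1 and de novo enzymes are low, whereas zebrafish PGCs have been described as keeping most of theirs.

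Levels are FPKM (fragments mapped to a gene, scaled to its exon length and to the depth of the library), which hold no read counts. They are per length, so levels of different genes in a cell can be set side by side. An FPKM of at least 1 was reached by between 6845 and 8148 genes in the earlier cells and by 5771, 7376 and 6654 genes in 24_1, 24_2 and 24_3. A value of 0 can be a transcript that was not captured: hprt1, a gene of purine salvage that most cells use, was listed at 0 in 6 of the 9 cells, among them all 3 at 24 hpf, whereas actb1, gapdh and rpl13a were above 0 in all 9. Of the genes at 1 or more in all 8 other cells, 19.0% were below 1 in 24_1, 7.07% in 24_2, 8.25% in 24_3 and at most 6.66% in any earlier cell. The germ cell label held up, with ddx4, the vasa gene, between 383 and 740 FPKM in the earlier cells and between 157 and 278 FPKM at 24 hpf. Of 12 germline markers, between 8 and 11 were at 10 FPKM or more in every cell. Of 12 muscle markers, 6 were at 10 FPKM or more in 24_1, 8 in 24_2 and 0 in 24_3, against at most 1 in any earlier cell. The summed muscle markers came to 608, 2500 and 5.53 FPKM in 24_1, 24_2 and 24_3, and to between 0 and 25.9 FPKM in the earlier cells. The myogenic regulators myod1 and myog were listed at 0 in all 9 cells. The lipid carrier genes apoa1a and apoa2, of a list of 6 endoderm and yolk markers, were above 0 in 24_2 alone, at 228 and 358 FPKM. Of the epidermal, neural, mesoderm and blood lists, each cell held at most 3 markers at 10 FPKM or more per list. The 3 were reached by the epidermal list of 6 genes in 11_1 and by the mesoderm list of 7 genes in 6_1. The epidermal markers summed to 147 FPKM in 11_1 and to 209 FPKM in 24_1, where 2 were at 10 FPKM or more.

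Of the 10 genes, 7 were above 0 in at least 1 cell, and dnmt3aa, tet1 and tet3 were listed at 0 in all 9. The maintenance pair was present in every cell at 6 and 11 hpf and listed at 0 in every cell at 24 hpf. The de novo gene dnmt3bb.2 was present in all 9 cells and was the most abundant of the 10 in 6 of them. Dnmt3bb.1 and tet2 were each seen in the same single cell, 24_2. Over the 7 genes, the mean FPKM was highest at 6 hpf for dnmt1 and uhrf1, at 11 hpf for dnmt3ba, and at 24 hpf for dnmt3ab, dnmt3bb.1, dnmt3bb.2 and tet2. Without 24_2, only dnmt3bb.2 kept its highest mean at 24 hpf, and without 11_1 or without 24_3 the mean of dnmt3bb.2 was highest at 11 hpf, with log2 differences of -0.12 and -0.22 at 24 against 11 hpf.

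**Figure D1:**
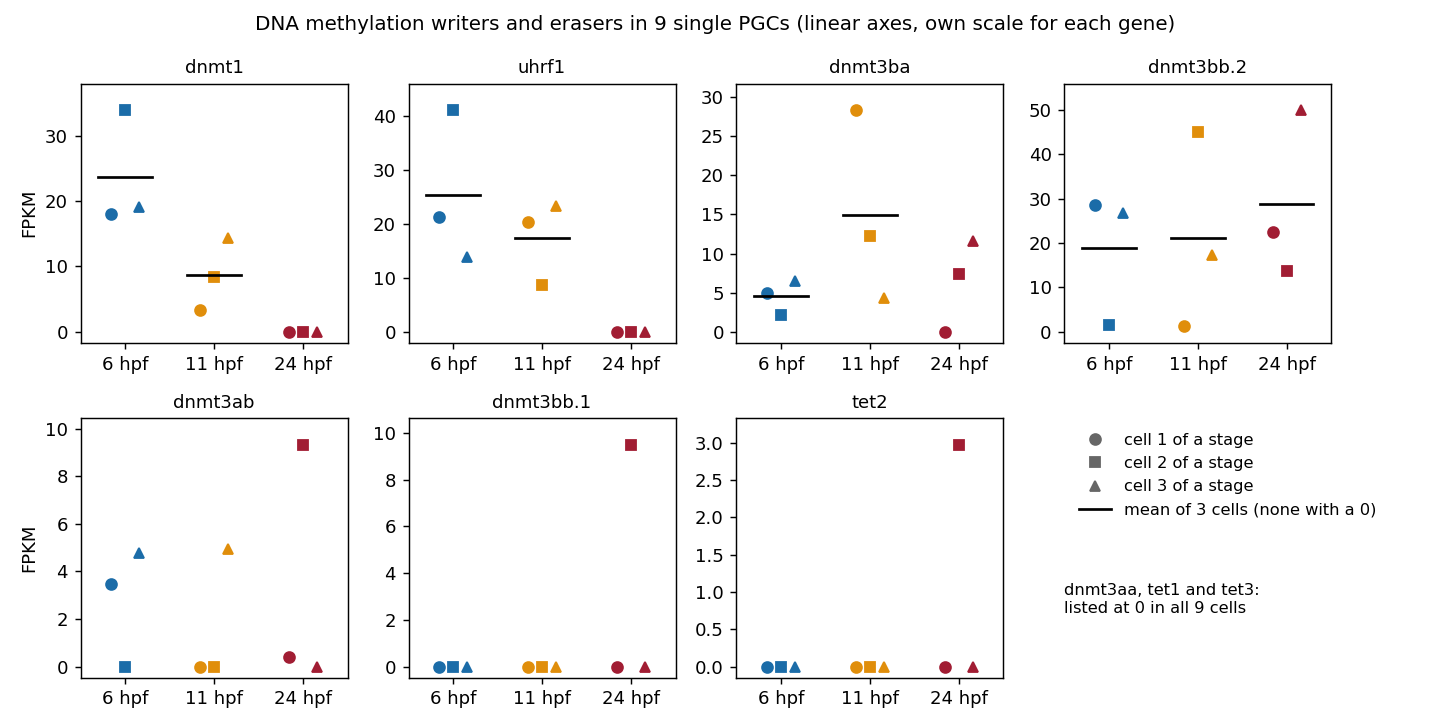
FPKM of 7 genes (vertical axes, linear, a scale for each gene) in the 3 cells of each stage (horizontal axes); symbols mark the cell number and bars the mean where no cell is at 0. The maintenance genes dnmt1 and uhrf1 lie above 0 in the 6 earlier cells and at 0 at 24 hpf, while dnmt3bb.1 and tet2 lie above 0 in 24_2 alone.

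Dnmt1 (ENSDARG00000030756), the maintenance methyltransferase, had 18.0, 33.9 and 19.1 FPKM in 6_1, 6_2 and 6_3, 3.32, 8.39 and 14.4 FPKM in 11_1, 11_2 and 11_3, and was listed at 0 in 24_1, 24_2 and 24_3. The stages did not overlap: the highest cell at 11 hpf, 11_3, lay below the lowest at 6 hpf, 6_1. The 11 hpf cells averaged 8.69 ± 5.53 FPKM, against 23.7 ± 8.86 FPKM for the 6 hpf cells (SD, n = 3 cells of 1 embryo each). The difference in log2(mean FPKM + 1) was -1.35, beyond the spread of 1.04 between cells (both SDs of log2(FPKM + 1), squared, added and put under the root). A gene was counted as higher or lower when this difference was at least 1 in size, a 2-fold change, and the cells of the stages did not overlap. The count of dnmt1 at 11 against 6 hpf rested on 11_1, since without that cell the difference was -0.99. Among the genes at 1 or more in a cell, dnmt1 lay above 47.1%, 61.7% and 41.9% of them at 6 hpf and above 7.4%, 19.6% and 30.2% at 11 hpf, in the order of the cells above. By this rank within the cell the 11 hpf cells lay below the 6 hpf cells without overlap. The rank is taken from the same FPKM values and is no separate evidence.

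Uhrf1 (ENSDARG00000103409), which guides Dnmt1 to newly replicated DNA, had 21.3, 41.0 and 13.9 FPKM in 6_1, 6_2 and 6_3, 20.3, 8.68 and 23.3 FPKM in 11_1, 11_2 and 11_3, and was listed at 0 in 24_1, 24_2 and 24_3. Cells at 6 and 11 hpf overlapped: the later cells averaged 17.4 ± 7.72 FPKM and the earlier ones 25.4 ± 14.0 FPKM (SD, n = 3 each, 1 embryo per stage). The log2 difference of -0.52 was within the spread of 1.04. The pair did not keep a fixed ratio. The FPKM of uhrf1 was between 0.729 and 1.21 times that of dnmt1 at 6 hpf and between 1.04 and 6.11 times at 11 hpf, where 11_1 was the cell with the lowest dnmt1. The cell 6_2 held the most of both.

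At 24 hpf both genes were below every cell of both earlier stages. A value of 0 may hide a low level, and the size of any log2 difference against it depends on the pseudocount. The 5 genes kept, those with at least 1 FPKM in at least 3 cells, were dnmt1, uhrf1, dnmt3ab, dnmt3ba and dnmt3bb.2, and both maintenance genes passed through the earlier stages alone. Of these 5 genes, 2 were counted as lower and 0 as higher at 24 than at 11 hpf, and the same numbers held against 6 hpf. Over all 9329 genes kept, 9.79% were lower and 7.89% higher at 24 than at 11 hpf, and 14.2% were lower and 9.83% higher at 24 than at 6 hpf. For 11 against 6 hpf, 1 of the 5 was lower (dnmt1) and 0 were higher, beside 6.19% lower and 4.89% higher among all genes kept. So few genes give no share worth setting against those percentages, and the counts are read gene by gene. The cell 24_3, in which both maintenance genes were listed at 0, held no muscle marker at 10 FPKM or more and a muscle sum of 5.53 FPKM. Whether RNA of other cells bears on the values of 0 was not tested.

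Of the 2934 genes that reached 1 FPKM in all 6 cells at 6 and 11 hpf, 130 (4.43%) had the value 0 in each of the 3 later cells, dnmt1 and uhrf1 among them. Only dnmt3ba and dnmt3bb.2 of the other 8 writers and erasers reached 1 FPKM in those 6 cells. Dnmt3bb.2 stayed above 0 in all 3 cells at 24 hpf, and dnmt3ba in 2 of them. By the read totals in the paper, each library at 24 hpf had more read pairs than most of the earlier ones. Read totals do not measure captured RNA, and 24_1 had the fewest genes at 1 FPKM or more (5771). Whether depth or capture bears on the values of 0 was not tested. How much RNA of dnmt1 and uhrf1 was captured in these cells is unknown.

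The genes that most resembled dnmt1 over the 9 cells, by Pearson's r of log2(FPKM + 1) among genes kept, were rnf26 (r = 0.98), rac1a (r = 0.98) and orc6 (r = 0.97). For uhrf1 they were si:dkey-7i4.7, lsm1 and srsf7a (r = 0.99 each). Of these, rnf26, si:dkey-7i4.7 and lsm1 shared the value of 0 in 24_1, 24_2 and 24_3, and rac1a, orc6 and srsf7a were lower there but present. Dnmt1 and uhrf1 had r = 0.94 with each other, and 83 genes (0.89%) lay closer to uhrf1. The values of 0 that the pair shared at 24 hpf enter this r, so it is no result apart from them. No r was computed over the earlier cells alone. These values describe 9 cells of 3 embryos that share stage and library handling. All 6 of these genes had their lowest values at 24 hpf, which follows from picking them by resemblance.

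Partners of maintenance methylation showed more than 1 pattern. Pcna, hells and dmap1 were picked out after their values were seen. Pcna, the sliding clamp of replication, which also binds Dnmt1, had 227, 352 and 323 FPKM in 6_1, 6_2 and 6_3, 514, 505 and 353 FPKM in 11_1, 11_2 and 11_3, and 198, 278 and 292 FPKM in 24_1, 24_2 and 24_3. The remodeller hells, which opens chromatin for methylation in the mouse, ranged over 26.8 to 49.8 FPKM in the 6 hpf cells, 43.9 to 101 in the 11 hpf cells and 33.9 to 39.6 in the 24 hpf cells. Both were thus present in all 3 cells at 24 hpf, in which dnmt1 and uhrf1 were listed at 0. Dmap1 averaged 27.2, 70.7 and 191 FPKM at 6, 11 and 24 hpf, but its cells overlapped and it was not counted. Its log2 difference was 1.42 at 24 against 11 hpf (spread 1.63) and 2.77 at 24 against 6 hpf (spread 2.31). Of the 14 partners kept, 3 had a difference above 0 at 24 against 11 hpf, dmap1 among them, and 11 below. The deubiquitinase usp7, known to stabilise DNMT1 and UHRF1 in human cells, had 0, 0.532 and 0 FPKM in 24_1, 24_2 and 24_3, against 5.75, 11.7 and 5.82 FPKM in 11_1, 11_2 and 11_3. Cdca7a, whose human homologue recruits HELLS, had 69.9, 42.9 and 33.9 FPKM in 24_1, 24_2 and 24_3, against 543, 353 and 444 FPKM in 11_1, 11_2 and 11_3, a log2 difference of -3.16 (spread 0.61). Of the 15 partners found, 14 were kept, of which 2 were lower and 0 higher at 24 than at 11 hpf, beside 9.79% lower and 7.89% higher over all genes kept. Against 6 hpf, 6 were lower and 0 higher at 24 hpf, beside 14.2% and 9.83% over all, among them cdca7a, usp7 and the histone methyltransferase genes suv39h1a and suv39h1b, which act in silent chromatin. Suv39h1a was listed at 0 in 24_1, 24_2 and 24_3, against 6.199, 124 and 37.9 FPKM in 6_1, 6_2 and 6_3. Suv39h1b was at most 0.0886 FPKM at 24 hpf, against between 18.0 and 38.0 FPKM at 6 hpf. Both were also listed at 0 in 11_3. Usp7, suv39h1a and suv39h1b were below 1 FPKM in every cell at 24 hpf, and so passed the filter through the earlier stages alone. At 11 against 6 hpf 1 partner was lower, the replication ligase gene lig1, by a log2 difference of -1.20 (spread 0.70). None was higher, beside 6.19% lower and 4.89% higher over all genes kept. Of the 9 partners at 1 FPKM or more in all 6 earlier cells, 0 had the value 0 in 24_1, 24_2 and 24_3 alike. Over all such genes the share was 4.43%, and 9 partners are too few to set against it.

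**Figure D2:**
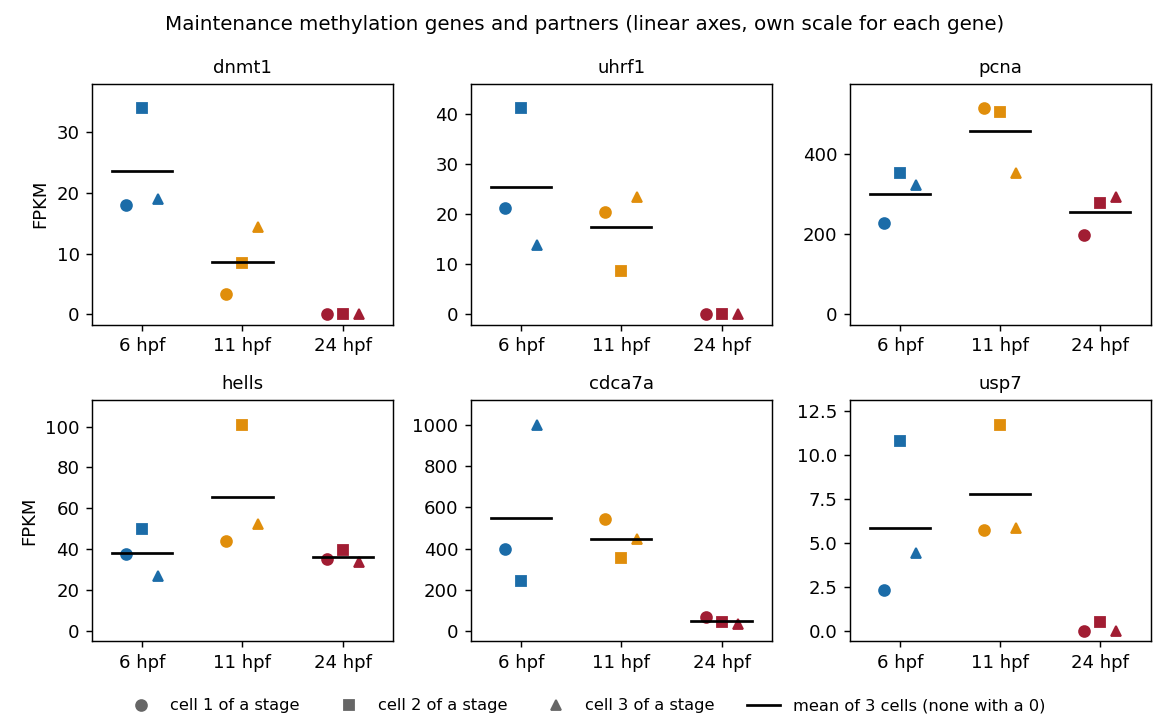
FPKM (vertical axes, linear, a scale for each gene) of dnmt1, uhrf1 and 4 partners in the 3 cells of each stage (horizontal axes); symbols mark the cell number and bars the mean where no cell is at 0. At 24 hpf dnmt1 and uhrf1 are at 0, pcna lies between 198 and 292, and hells between 33.9 and 39.6.

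Among the de novo methyltransferases dnmt3bb.2 (ENSDARG00000057830) led. It had 28.5, 1.54 and 26.8 FPKM in 6_1, 6_2 and 6_3, 1.28, 45.02 and 17.3 FPKM in 11_1, 11_2 and 11_3, and 22.5, 13.7 and 49.95 FPKM in 24_1, 24_2 and 24_3. The stages overlapped throughout, and the cells within a stage differed more than the stages. For 6, 11 and 24 hpf it averaged 18.9 ± 15.1, 21.2 ± 22.1 and 28.7 ± 18.9 FPKM (SD, n = 3 cells of 1 embryo each). The log2 difference of 24 against 11 hpf was 0.42 (spread 2.40), that of 24 against 6 hpf 0.58 (spread 2.21) and that of 11 against 6 hpf 0.16 (spread 3.00). The cells 6_2 and 11_1 stood below all others, in the lowest 2.6% and 1.2% of the genes at 1 or more, while in 11_2 and 24_3 the gene lay above 65.1% and 62.0% of them. The closest genes by pattern were znf1156 (r = 0.96), cdk12 (r = 0.95) and gpatch11 (r = 0.94), each of which was below 1 FPKM in 6_2 and 11_1 alone, where dnmt3bb.2 also had its lowest values. This pattern set cells apart within stages, and the shared low values follow from picking these genes by resemblance. Of genes kept, 0.107% had r above 0.9 with dnmt3bb.2, beside 1.06% with dnmt1 and 1.44% with uhrf1.

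Dnmt3ba (ENSDARG00000052402), another Dnmt3b gene, had 4.93, 2.17 and 6.55 FPKM in 6_1, 6_2 and 6_3, 28.3, 12.3 and 4.35 FPKM in 11_1, 11_2 and 11_3, and 7.34 and 11.6 FPKM in 24_2 and 24_3, and was listed at 0 in 24_1. Cells at 6 and 11 hpf overlapped through 11_3 alone, with a log2 difference of 1.53 and a spread of 1.39. Without 11_3 dnmt3ba was counted as higher at 11 than at 6 hpf (1.94) and as lower at 24 than at 11 hpf (-1.54). With all cells the difference at 24 against 11 hpf was -1.13, within the spread of 2.31. The value of 0 in 24_1 stands in the cell that lacked the most genes found in all others. Whether capture bears on it was not tested.

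Dnmt3ab (ENSDARG00000015566), a Dnmt3a gene, was low and patchy, at 3.49 FPKM in 6_1, 4.78 in 6_3, 4.95 in 11_3, 0.395 in 24_1 and 9.31 in 24_2, and listed at 0 in the other 4 cells. No stage had it in all 3 cells at 1 FPKM or more, and the stages overlapped. Its log2 difference of 0.68 at 24 against 11 hpf (spread 2.35) was -1.15 without 24_2. Its paralogue dnmt3aa (ENSDARG00000005394) was listed at 0 throughout. Dnmt3bb.1 (ENSDARG00000036791) had 9.48 FPKM in 24_2 and was listed at 0 in the other 8 cells. Dnmt3bb.3, a further gene of the family that is not among the 10, was above 0 in all 9 cells, between 0.0189 and 12.03 FPKM, the highest in 11_3.

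The dnmt3 genes, dnmt3bb.3 included, summed to 36.9, 5.45 and 44.7 FPKM in 6_1, 6_2 and 6_3, 33.01, 57.4 and 38.7 FPKM in 11_1, 11_2 and 11_3, and 23.8, 43.4 and 67.1 FPKM in 24_1, 24_2 and 24_3. In that order of stages the sum averaged 29.0 ± 20.8, 43.0 ± 12.8 and 44.8 ± 21.7 FPKM (SD, n = 3 cells of 1 embryo each), and the stages overlapped. Dnmt3bb.2 was the largest part of the sum in 7 of 9 cells. In the same order of cells its share was 77.2%, 28.3% and 60.0%, then 3.87%, 78.4% and 44.8%, then 94.8%, 31.5% and 74.4%. In the cells 6_2 and 11_1 the largest part was dnmt3ba instead, with 39.9% and 85.8%. In 24_2 the sum was spread most evenly, over dnmt3bb.2 (31.5%), dnmt3bb.1 (21.8%), dnmt3ab (21.4%), dnmt3ba (16.9%) and dnmt3bb.3 (8.34%). Dnmt3bb.1, dnmt3bb.2 and dnmt3bb.3 follow each other in the GRCz12tu annotation of RefSeq, with 1 other gene between neighbours. Reads that match several of these copies could be split between them, which would make single shares within the cluster less certain than the sum. How alike their sequences are was not tested.

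**Figure D3:**
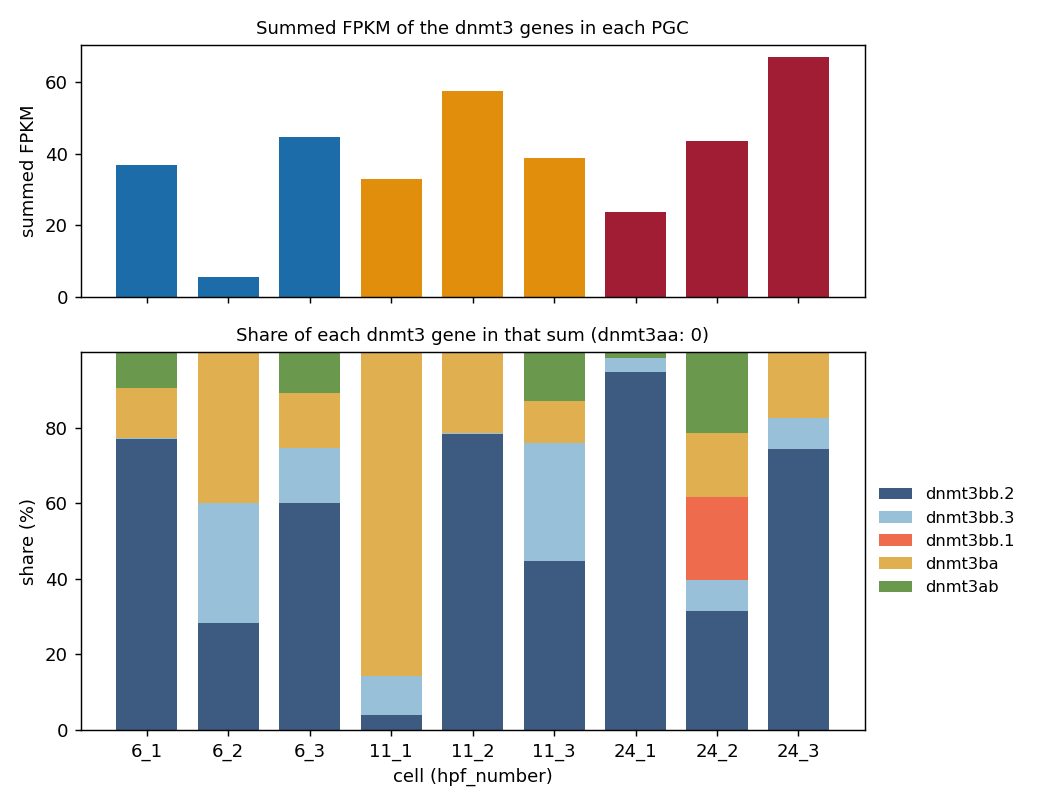
Upper bars, summed FPKM of the dnmt3 genes in each of the 9 cells (colour by stage). Lower bars, the share of each gene in that sum in percent; dnmt3bb.2 is the largest part in 7 cells and dnmt3ba in 6_2 and 11_1, and dnmt3bb.1 appears in 24_2 alone.

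Set against maintenance, the dnmt3 sum was 2.05, 0.161 and 2.34 times the FPKM of dnmt1 in 6_1, 6_2 and 6_3, and 9.94, 6.85 and 2.69 times in 11_1, 11_2 and 11_3. Every cell at 11 hpf lay above every cell at 6 hpf in this ratio, by a small margin between 11_3 and 6_3. The ratio divides by dnmt1, which itself did not overlap between these stages, whereas the dnmt3 sums overlapped. It is therefore no result apart from that of dnmt1. At 24 hpf the ratio has no value, because dnmt1 was listed at 0 beside a dnmt3 sum of at least 23.8 FPKM. The cell 6_2 was alone in holding more dnmt1 than all dnmt3 genes together.

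The Tet dioxygenases were scarcely seen. Tet1 (ENSDARG00000075230) and tet3 (ENSDARG00000062646) were listed at 0 in all 9 cells, and tet2 (ENSDARG00000076928) had 2.97 FPKM in 24_2 and 0 elsewhere. In 24_2 tet2 lay above 7.9% of the genes at 1 or more. No upper limit was computed for the level of a gene listed at 0, because read counts per gene and the capture of its RNA are not known.

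Several results on low genes turn on the cell 24_2. It held 5 of the 10 genes at 1 FPKM or more, against 1 in 24_1 and 2 in 24_3, and both genes that were seen in 1 cell only. Of the 3618 genes at 1 FPKM or more in exactly 1 cell, 734 (20.3%) were in 24_2, 545 (15.1%) in 24_1, 425 (11.7%) in 24_3 and between 245 and 433 in each earlier cell. As a share of the cell's own genes at 1 FPKM or more, 24_2 and 24_1 were close, at 9.95% and 9.44%. The share was 6.39% in 24_3 and at most 5.31% in any earlier cell. Muscle markers were also most numerous in 24_2, where apoa1a and apoa2 were found. Whether RNA of other cells is part of its dnmt3bb.1, dnmt3ab and tet2 values was not tested.

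The wider pathway was followed through 5 lists of genes written by symbol. Of the 12 base excision and demethylation partners kept, 2 were higher and 4 lower at 24 than at 11 hpf, beside 7.89% higher and 9.79% lower over all genes kept. The thymine DNA glycosylase genes, whose products cut out bases that Tet enzymes have oxidised, differed from each other. Tdg.1 had 0.408, 0 and 0 FPKM in 24_1, 24_2 and 24_3, against 37.0, 14.0 and 19.3 FPKM in 11_1, 11_2 and 11_3. At 6 hpf it was above 0 in 6_2 alone (3.65 FPKM), and it counted as higher at 11 than at 6 hpf. Tdg.2 had 27.9, 54.5 and 66.2 FPKM in 24_1, 24_2 and 24_3, against 23.0, 0 and 11.3 FPKM in 11_1, 11_2 and 11_3, and at most 2.09 FPKM at 6 hpf. The stages did not overlap for either gene at 24 against 11 hpf, but the log2 difference of tdg.2, 2.02, was smaller than its spread (2.4998), while that of tdg.1 was -4.43 with a spread of 0.74. The copies are neighbours in the GRCz12tu annotation, and whether reads were split between them was not tested. Unga, a uracil glycosylase gene, and lig3, a ligase gene that seals the repaired strand, shared the pattern of dnmt1 and uhrf1. Unga was between 84.7 and 260 FPKM in the 6 earlier cells and lig3 between 9.75 and 21.2, and at 24 hpf every cell listed both at 0. They were 2 of the 5 genes of this list that reached 1 FPKM in all 6 earlier cells. Over all such genes, 4.43% had the value 0 in all 3 later cells, and 5 genes are too few to set against that share. Unga, lig3 and tdg.1 were below 1 FPKM in every cell at 24 hpf, and so passed the filter through the earlier stages alone. Gadd45ba, a stress gene that has been linked to demethylation, had 39.5, 19.1 and 74.7 FPKM in 24_1, 24_2 and 24_3, and was listed at 0 in 11_1, 11_2 and 11_3, while 6_1 held 26.2 FPKM. It was also listed at 0 in 6_2 and 6_3, and would not have passed the filter without the 24 hpf cells. The polymerase gene polb, which fills the repaired gap, was also lower at 24 than at 11 hpf, with 48.2, 48.4 and 0 FPKM in 24_1, 24_2 and 24_3 against 68.8, 107 and 137 FPKM in 11_1, 11_2 and 11_3, though the log2 difference of -1.66 was within its spread of 3.28. Against 6 hpf, 2 were higher and 2 lower at 24 hpf, beside 9.83% and 14.2% over all. Parp1, which senses strand breaks, had 74.0, 51.2 and 64.7 FPKM in 24_1, 24_2 and 24_3, against 26.5, 20.0 and 9.58 FPKM in 6_1, 6_2 and 6_3, and tdg.2 was higher too, with unga and lig3 lower. At 11 against 6 hpf 2 were higher and 0 lower, beside 4.89% higher and 6.19% lower over all genes kept. The higher genes were tdg.1 and the stress gene gadd45ga, and neither would have passed the filter without the 11 hpf cells. Gadd45ga had 183, 34.9 and 45.6 FPKM in 11_1, 11_2 and 11_3 against 0, 25.8 and 0 FPKM in 6_1, 6_2 and 6_3. Its log2 difference of 3.21 was close to its spread of 3.02.

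Of the 9 methyl-CpG readers found, 5 were kept. Mbd3a was lower at 24 than at 11 hpf, with 0, 32.7 and 3.04 FPKM in 24_1, 24_2 and 24_3 against 52.4, 82.9 and 104 FPKM in 11_1, 11_2 and 11_3. No reader was higher, beside 9.79% lower and 7.89% higher over all genes kept. Mbd3a was lower against 6 hpf as well, where 14.2% of all genes kept were lower and 9.83% higher. Its log2 difference was -2.65 at 24 against 11 hpf and -2.60 at 24 against 6 hpf, each close to its spread of 2.60. Its paralogue mbd3b had 134, 93.4 and 64.7 FPKM in 24_1, 24_2 and 24_3, against 42.2, 11.2 and 58.9 FPKM in 6_1, 6_2 and 6_3, a log2 difference of 1.35 (spread 1.32), and was the 1 reader counted as higher there. Of the 12 genes kept for S-adenosylmethionine, the methyl donor, and one-carbon supply, 0 were lower and 0 higher at 24 than at 11 hpf. The shares over all genes kept were 9.79% and 7.89%, and 12 genes are too few to set against them. Against 6 hpf, mat2b, a subunit gene of the enzyme that makes the donor, was higher at 24 hpf (1.03, spread 0.55). Ahcyl2 (-3.96, spread 0.72) and the folate enzyme gene mthfd1b (-1.04, spread 0.74) were lower there, beside 9.83% higher and 14.2% lower over all genes kept. Ahcyl2 was also the 1 gene of this list lower at 11 than at 6 hpf, beside 6.19% over all genes kept. It was listed at 0 in 11_1, 11_2 and 11_3 against 8.46, 22.8 and 17.4 FPKM in 6_1, 6_2 and 6_3, and passed the filter through the 6 hpf cells alone. The median log2 difference of the list at 24 against 11 hpf was 0.25, beside -0.080 over all genes kept. In the same comparison the medians were -0.94 for maintenance partners, 0.69 for methyl-CpG readers, -0.84 for base excision partners and -1.13 for the 5 writers and erasers kept, which include both maintenance genes by construction of the filter. That -1.13 is the value of dnmt3ba, which was within its spread. Against 6 hpf the medians at 24 hpf were -0.86 for maintenance partners, 0.012 for readers and -0.069 for base excision partners. They were 0.060 for methyl donor supply and 0.17 for the 5 writers and erasers, beside -0.10 over all genes kept. The median of the 5 thus changed sign with the stage compared. The other lists also hold genes that passed the filter through earlier stages alone, and the base excision list holds gadd45ba, which needed the 24 hpf cells to pass. The remaining homologues, trdmt1, a tRNA methyltransferase gene, and dnmt3bb.3, were not counted in either direction.

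**Figure D4:**
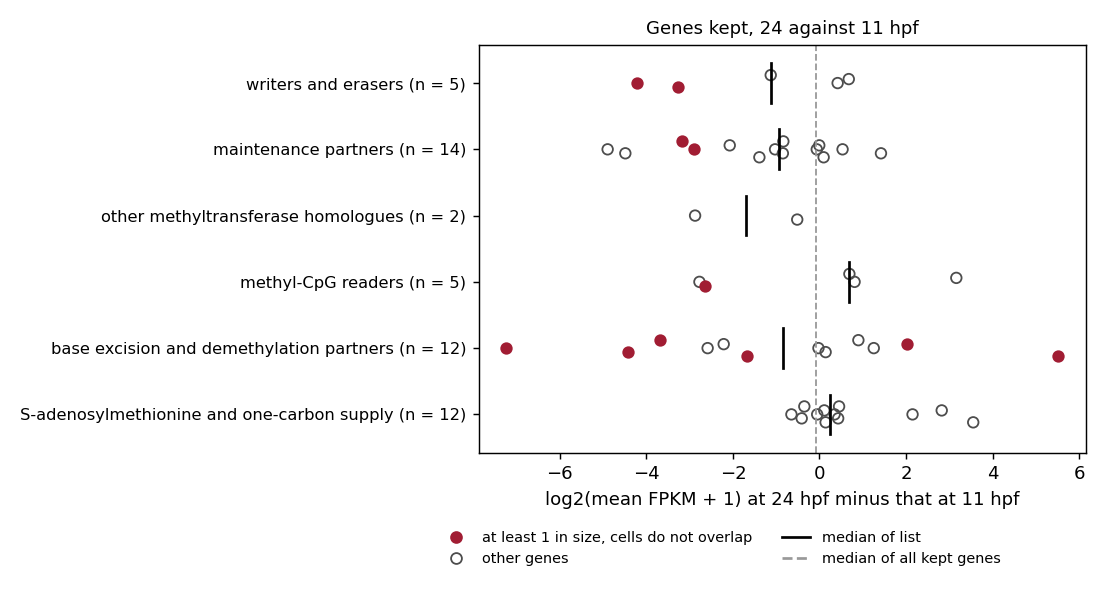
Difference in log2(mean FPKM + 1) at 24 minus 11 hpf (horizontal axis) for the genes kept of 6 lists (rows); filled points are at least 1 in size with no overlap of cells, bars are list medians and the dashed line is the median of all genes kept, -0.080. The 2 filled points among writers and erasers are uhrf1 (-4.20) and dnmt1 (-3.28), whose size depends on the added 1 because both are listed at 0 at 24 hpf.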

How the data were processed

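FPKM per gene were deposited for each cell, without read counts. Libraries came from single PGCs by an adapted Smart-seq2 method, and the authors trimmed reads (Trimmomatic), aligned them to danRer10 (HISAT2 2.0.5) and estimated FPKM of Ensembl genes (StringTie 1.3.3). Genes at 0 in every cell are listed too. No strand setting is given in the sources used here, so overlapping genes cannot be told apart.

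Calculations ran in Python 3.11.15, using numpy 2.4.6, pandas 2.3.3 and, for plots, matplotlib 3.10.9. Genes with at least 1 FPKM in at least 3 cells were kept, and differences were taken between log2 of stage means plus a pseudocount of 1. The members and lists were chosen with earlier results of these data known. All 10 members are described, and of each pathway list up to 4 genes per comparison and direction that met the rule for higher or lower, by size. Of 137 listed symbols, 4 were matched through gene IDs and 4 were not matched. The counting was tested on simulated data with 200 changed genes. Alternatives were other pseudocounts, filters and scalings, the mean of log values, and leaving out cells.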

Additional observations from a re-analysis of the deposited data

How the results depend on the processing

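With a pseudocount of 10, the genes counted as lower numbered 0 at 11 against 6 hpf and 1 (uhrf1) at 24 against 11 hpf, since a larger pseudocount shrinks low values by construction. Leaving out each cell in turn gave 0 to 1 genes lower and 0 to 1 higher at 11 against 6 hpf, 1 to 2 genes with their highest mean at 11 hpf, and 1 to 4 at 24 hpf. The cells behind these changes were 11_1 (dnmt1 no longer lower, dnmt3bb.2 highest at 11 hpf), 11_3 (dnmt3ba higher), 24_2 (dnmt3ab, dnmt3bb.1 and tet2 no longer highest at 24 hpf), 24_3 (dnmt3bb.2 highest at 11 hpf) and 6_2 (dnmt3ab highest at 6 hpf). Without 11_3, dnmt3ba was also counted as lower at 24 than at 11 hpf. Without both cells that held muscle markers, chosen after seeing the data, with a single cell left at 24 hpf, 1 gene (dnmt3bb.2) was higher at 24 than at 11 hpf and 2 (dnmt3bb.2 and dnmt3ba) at 24 than at 6 hpf, while dnmt1 and uhrf1 stayed the 2 lower genes. No gene counted as higher or lower changed direction, but differences that were not counted did. For dnmt3ab, the log2 difference of 24 against 11 hpf was 0.68 with all cells, -1.15 without 24_2, 2.08 without 11_3 and -1.41 without both cells with muscle markers, and that of 24 against 6 hpf was 0.17, and -1.65 without 24_2. Differences of dnmt3ba and dnmt3bb.2 also changed sign when single cells were left out. Over all genes kept, leaving out 1 cell gave up to 882 genes higher and 979 lower at 11 against 6 hpf (456 and 577 with all cells), 1165 higher and 1526 lower at 24 against 11 hpf (736 and 913), and 1426 higher at 24 against 6 hpf (917), since fewer cells overlap less. Without both cells with muscle markers these were 2196 higher and 1643 lower at 24 against 11 hpf, and 2416 and 2189 at 24 against 6 hpf. The log2 differences of dnmt1 and uhrf1 at 24 hpf follow the pseudocount: at 24 against 11 hpf they were -6.46 and -7.45 with 0.1, and -0.90 and -1.46 with 10. At 24 against 6 hpf, the median of all genes kept was -0.32 with median-of-ratios scaling and -0.42 with the mean of log values, beside -0.10 as reported, and dnmt1 and uhrf1 were counted as lower under both. No paired analysis was possible because the cell numbers only name cells of different embryos and no test was run. The FPKM hold no depth for a single gene, which limits what a 0 can show.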
